A study of Homo sapiens with 4 samples.

Results

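The distal regions described here were open in all 4 ATAC-seq libraries of a nasopharyngeal carcinoma line. ATAC-seq uses a transposase to cut accessible DNA, so that a peak marks open chromatin. Peaks of the 4 deposited lists on chromosomes 1 to 22 and X were merged where they overlapped by at least 1 bp, which gave 93211 regions. A region was chosen by 2 readings of the lists, a peak in every list and a WT summit over 3 kb from any annotated transcription start site (TSS). These criteria chose 21590 regions (23.2% of all), while 19286 regions in every list had a summit nearer to a TSS and 39862 distal regions were listed in 1 to 3 libraries. Because presence chose the regions, it is not a result here, and a region that fell below the peak threshold in any library could not be a member. The changes in summit height below concern only regions that stayed open in every library.

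The cells were HK1, an established human nasopharyngeal carcinoma line. WT cells were unedited and untreated, and WT-IFN-γ cells were unedited and received IFN-γ, for a day per the study's methods. sgFLI1 cells carried a FLI1 knockout and were untreated, and sgFLI1-IFN-γ cells carried the knockout and received IFN-γ. Each group had 1 peak list, treated as 1 library, so no difference between groups could be tested against replicates. Whether the knockout cells were 1 clone is not given in the sources used here, and a difference between genotypes cannot be told apart from a difference between clones or cultures. The peak lists do not measure FLI1 protein or RNA, so they do not check the knockout.

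Distal open regions include enhancers, which bind transcription factors and act on genes at a distance, and sites bound by CTCF, which anchors chromatin loops. In epithelial cells many enhancers carry sites for AP-1, a family of FOS and JUN dimers. IFN-γ acts through its receptor and induces factors of the interferon regulatory factor (IRF) family, whose sites lie at genes of antigen presentation and antiviral defence. FLI1 is an ETS-family transcription factor. RUNX and C/EBP factors bind enhancers in many cell types, and C/EBP factors are also known in inflammatory gene induction.

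The height of a peak was read as its summit pileup, the number of extended tags covering the summit, recovered as a whole number from the deposited fold and p-value. To set libraries side by side, levels are given as tags at the depth of WT, after scaling each library by its tag density. Changes are log2 ratios of these levels, centred on the median over all 40876 regions in every list, and are printed with 95% intervals that cover counting error only. A region was called where its pair of libraries held at least 60 tags together and the change was past 2-fold. The median shift that centring removed was -0.07 for WT-IFN-γ against WT, -0.14 for sgFLI1-IFN-γ against sgFLI1, 0.05 for sgFLI1 against WT and -0.03 for sgFLI1-IFN-γ against WT-IFN-γ.

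Sequences of regions that carried the main changes are shown on the forward strand of GRCh38. Each is the 201 bases around the summit of the library with the highest level, and capitals mark the motif matches found there. The first 4 regions rose with IFN-γ in WT cells and hold IRF matches (GAAANNGAA), AP-1 matches (TGACTCA), or a GGAA repeat or NF-κB match beside them. A region's name is the gene with the nearest protein-coding TSS, which need not be its target. The sequences are examples and do not show how frequent a match is. The TVP23A and CLEC3B regions rose more than the PDE4B region, are not printed, and held no match to any motif searched at the WT summit. Of the members that rose in WT cells, 20.5% held an IRF match with the window on the WT-IFN-γ summit.
RNF7 region, capitals for 1 IRF match, chr3:141686779-141686979: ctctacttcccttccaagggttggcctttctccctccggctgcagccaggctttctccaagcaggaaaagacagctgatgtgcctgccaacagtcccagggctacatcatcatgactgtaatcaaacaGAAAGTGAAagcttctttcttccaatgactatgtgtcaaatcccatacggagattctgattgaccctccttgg
PDE4B region, capitals in order for a GGAA repeat, AP-1 and 3 IRF matches, chr1:65812147-65812347: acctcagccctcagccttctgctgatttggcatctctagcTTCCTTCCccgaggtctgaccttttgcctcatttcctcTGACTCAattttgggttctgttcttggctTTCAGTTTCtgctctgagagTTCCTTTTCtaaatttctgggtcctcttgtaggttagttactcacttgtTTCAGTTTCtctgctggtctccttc
PARP15 region, capitals in order for an IRF and 2 AP-1 matches, chr3:122610098-122610298: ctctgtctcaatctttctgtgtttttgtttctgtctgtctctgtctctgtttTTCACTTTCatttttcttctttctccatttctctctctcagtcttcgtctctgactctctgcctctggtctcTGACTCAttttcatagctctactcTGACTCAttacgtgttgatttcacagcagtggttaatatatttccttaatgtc
HLA-E region, capitals in order for an NF-κB and an AP-1 match, chr6:30496605-30496805: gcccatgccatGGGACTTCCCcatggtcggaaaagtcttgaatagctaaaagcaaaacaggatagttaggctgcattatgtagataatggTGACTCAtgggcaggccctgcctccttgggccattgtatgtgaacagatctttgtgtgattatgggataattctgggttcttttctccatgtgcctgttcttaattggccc
The next sequences come from regions that were higher in sgFLI1 than in WT cells with and without IFN-γ. They show RUNX (TGTGGTT) and AP-1 matches, whose shares in such regions are given below, and a C/EBP match (TTGCNNAA), which was no more frequent in them (10.5%) than in the members tested (10.7%).
LPCAT1 region, capitals in order for RUNX, C/EBP and RUNX, chr5:1555546-1555746: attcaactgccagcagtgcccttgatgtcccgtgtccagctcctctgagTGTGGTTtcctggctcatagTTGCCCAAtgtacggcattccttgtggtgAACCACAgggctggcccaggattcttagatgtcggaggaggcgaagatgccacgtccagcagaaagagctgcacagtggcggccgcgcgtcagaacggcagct
SAXO1 region, capitals for 1 RUNX match, chr9:18976850-18977050: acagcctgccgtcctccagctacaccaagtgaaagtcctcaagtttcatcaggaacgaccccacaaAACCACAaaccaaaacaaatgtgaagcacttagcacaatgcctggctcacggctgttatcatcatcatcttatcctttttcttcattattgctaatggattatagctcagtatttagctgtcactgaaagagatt
BATF3 region, capitals for 1 AP-1 match, chr1:212656140-212656340: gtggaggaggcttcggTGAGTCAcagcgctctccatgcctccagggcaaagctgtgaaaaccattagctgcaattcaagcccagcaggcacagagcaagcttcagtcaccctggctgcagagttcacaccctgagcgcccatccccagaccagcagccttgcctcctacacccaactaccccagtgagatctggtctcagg
The last sequence holds a CTCF match in the GABPB2 region, which was lower with IFN-γ in WT cells.
GABPB2 region, capitals for 1 CTCF match, chr1:151099905-151100105: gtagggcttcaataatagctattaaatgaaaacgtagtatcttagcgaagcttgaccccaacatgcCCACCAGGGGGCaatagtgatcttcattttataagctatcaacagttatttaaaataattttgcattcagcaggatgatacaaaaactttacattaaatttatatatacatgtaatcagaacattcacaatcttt

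The members lay mostly within genes or in their neighbourhood. Their WT summits were intronic in 11554 regions (53.5%, Wilson interval 52.8 to 54.2), intergenic in 9172 (42.5%, 41.8 to 43.1) and exonic in 864 (4.00%, 3.75 to 4.27). A TSS lay 3 to 10 kb away for 8739 members, 10 to 50 kb away for 10673, 50 to 100 kb away for 1628 and over 100 kb away for 550. Median GC content of the 201 bases at the WT summit was 48.8%, against 62.2% at promoter regions in every list and 46.3% at distal regions in 1 to 3 lists. Chromosome 1 held the most members, 2317. Members were seldom crowded: when nearby summits were joined over gaps of up to 12.5 kb, 14616 members stood alone, 6974 (32.3%) had a neighbour, and the largest group held 8. One group of 8 lay over 47.7 kb beside PTPN1, a phosphatase that dampens cytokine signalling, and another over 49.8 kb beside BCL10, an adaptor of NF-κB signalling.

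Distal members were lower peaks than promoter regions in every library. The median summit pileup of the members was 33 and 36 tags in the WT pair, untreated and treated, and 31 and 28 in the sgFLI1 pair, with a range of 8 to 418 tags in WT. At the depth of WT these medians were 33, 32.8, 36.0 and 32.8 tags, and those of promoter regions were 73, 70.1, 73.1 and 66.8 tags. The middle ranges of the 2 kinds of region overlapped in every library, since members ran from 22 to 53 tags and promoter regions from 40 to 112 tags in WT between their lower and upper quartiles.

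**Figure D1:**
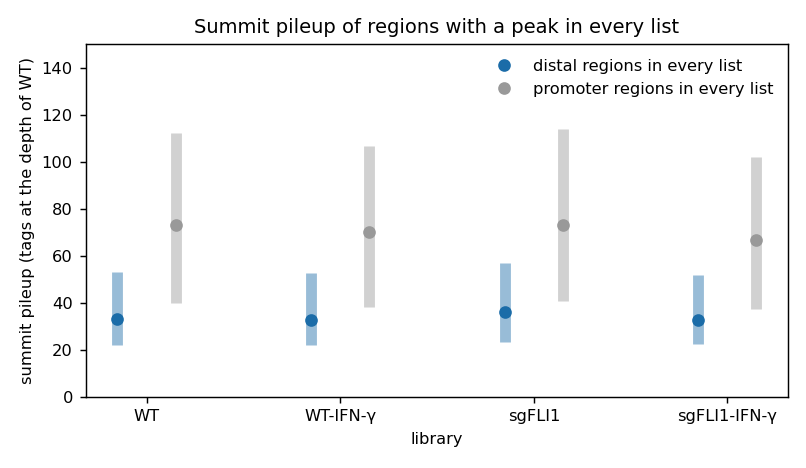
Summit pileup by library, in tags at the depth of WT, for distal (blue) and promoter (grey) regions with a peak in every list; points are medians and bars span the quartiles. Distal medians lie between 32.8 and 36.0 tags and promoter medians between 66.8 and 73.1 tags.

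At the edges of the rule the values ran on without a step. The 826 members 3.0 to 3.5 kb from a TSS had a median of 38 tags in WT, and the 863 regions in every list just inside 3 kb had 41. The 98 members whose lowest −log10 q was under 2 had medians of 15 tags in WT and 13 in sgFLI1-IFN-γ. The 6983 distal regions in exactly 3 lists, which are not members, had a median of 18 tags in WT where WT listed them.

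None of the 5 tallest members passed 2-fold in any comparison. The tallest, chr21:6369112-6372217, had 418 and 406 tags at the depth of WT in untreated and treated WT cells and 457 and 390 in sgFLI1 cells. The same order of libraries is kept wherever 4 levels follow each other. A region in chr10:46523484-46525434, nearest GPRIN2, had 318, 299, 333 and 285 tags. A region upstream of TRAPPC9 had 294, 288, 366 and 322 tags. A region nearest P3H2, a collagen prolyl hydroxylase, had 241, 268, 309 and 257 tags and an AP-1 match. A region on the short arm of chromosome 21, chr21:8219489-8220215, had 285, 199, 349 and 378 tags and was higher in sgFLI1-IFN-γ than in WT-IFN-γ by 0.95 (0.69 to 1.20). Ribosomal DNA copies lie on that arm, which also holds the tallest member. Alignments of low mapping quality had been removed per the study's methods, and the part of repeated sequence in these levels was not tested.

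Members differed from other regions in their sequence. An AP-1 match lay within 100 bp of the WT summit in 5688 members (26.3%, Wilson interval 25.8 to 26.9), against 10.6% of promoter regions in every list, 17.6% of distal regions in 1 to 3 lists and 17.8% of all merged regions. A CTCF match was found in 2468 members (11.4%, 11.0 to 11.9), against 5.53% of promoter regions, 4.77% of distal regions in 1 to 3 lists and 6.49% of all. The intervals of the members did not reach any of these other shares. An IRF match went the other way among distal regions, with 6.22% of members and 9.99% of distal regions in 1 to 3 lists (7.71% of all). The consensus of ETS factors (CCGGAAGT), the family of FLI1, was rare in members, with 61 matches (0.283%), and was found in 3.83% of promoter regions and 0.978% of all.

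Other motifs separated members from promoter regions more than from other distal regions. C/EBP matches were found in 11.3% of members, 6.55% of promoter regions and 11.8% of distal regions in 1 to 3 lists. RUNX matches were found in 6.05%, 2.97% and 5.95%. The TEAD consensus (CATTCCA), bound by the factors of the Hippo pathway, was found in 6.15%, 2.96% and 5.69%. A KLF match (GGGNGTGG) was found in 8.51% of members and 12.7% of promoter regions. FOX (TGTTTAC), SOX (CATTGTT) and GRHL (AACNGGTT) matches were found in 3.77%, 3.80% and 1.20% of members, and the GGAA repeat (GGAAGGAA) in 2.58%. NF-κB matches were found in 3.61% of members and p53 family matches in 7 members. Both strands were searched, and matches of different motifs may overlap.

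AP-1 and CTCF matches lay close to the summits. Of members with an AP-1 match 65.6% had it within 50 bp of the summit, and of members with a CTCF match 81.7%, against 46.1% for IRF. Members with an AP-1 match were also higher, with medians of 35, 38.2, 41.8 and 37.5 tags, against 32, 30.9, 33.6 and 31.7 tags without. When members were ranked by their mean level, the share with an AP-1 match ran from 19.8% in the lowest of 5 equal bins to 33.1% in the highest. The share with a CTCF match was 12.2% in the lowest bin and 4.26% in the highest.

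The first comparison asks how IFN-γ changed open distal sites in unedited cells. Of 12868 members with at least 60 tags (8722 were under that minimum), 375 were higher in WT-IFN-γ than in WT (2.91%, Wilson interval 2.64 to 3.22), and 28 were lower (0.218%, 0.151 to 0.314), or 56 without centring. Over all regions in every list, 1.76% were called higher and 0.153% lower. Among promoter regions alone 0.866% were higher and 0.103% lower, outside the members' intervals for higher and lower. Promoter regions were taller peaks, and calls became fewer with height. Of the 375 members, 121 were in the lowest of 5 equal bins of mean level and 17 in the highest. The part of peak height in the gap between members and promoter regions was not tested. The middle of the members' changes, between the quartiles, ran from -0.19 to 0.27 after centring. In the 375 members that were higher, the level ran from 8 to 100 tags with a median of 24 in WT, and from 37.3 to 218 tags with a median of 57.3 in WT-IFN-γ. The same members had medians of 33.6 tags in sgFLI1 and 34.0 tags in sgFLI1-IFN-γ. Since these members were chosen for a low WT and a high WT-IFN-γ value, libraries outside the choice would be expected between them.

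The largest rises were at single sites. The RNF7 region, chr3:141686311-141687316, in an intron of a non-coding gene 51.1 kb upstream of RNF7, a subunit of ubiquitin ligases, had 8 and 83.7 tags in untreated and treated WT cells and 27.8 and 42.2 in sgFLI1 cells. It rose by 3.46 (2.42 to 4.71) in the WT pair, and the sgFLI1 pair gave 0.74 (-0.04 to 1.55). No WT peak was lower than its 8 tags, so the size of this rise rests on a value at the floor. The 2 WT libraries were also read at different sites. The WT summit, at position 141687187, lies outside the window printed above on the WT-IFN-γ summit. The TVP23A region, chr16:10828098-10829623, had 13, 111, 20.9 and 31.7 tags in the same order and changed by 3.16 (2.34 to 4.11) in WT cells. Its nearest start is that of TVP23A, 10.3 kb away, and that of CIITA, the activator of MHC class II genes, lies 37.1 kb away and was named after the values were seen. The CLEC3B region, chr3:45064575-45065435, had 24, 165, 61.5 and 66.8 tags and changed by 2.85 (2.23 to 3.53). The PDE4B region, chr1:65812050-65812914, in an intron of this cAMP phosphodiesterase gene, had 13, 73.7, 32.5 and 29.3 tags and changed by 2.57 (1.72 to 3.54). In each of these 4 regions WT-IFN-γ was the highest library and WT the lowest. They were named for the largest ratios of WT-IFN-γ to WT, a choice that favours this order.

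Falls with IFN-γ in WT cells were fewer and smaller. The ARHGAP26 region, chr5:143086715-143087775, in an intron of this gene, had 53, 19.1, 33.6 and 17.6 tags and a change of -1.40 (-2.21 to -0.65). It was low in both treated libraries. The region nearest TMPRSS2, a serine protease gene, had 55, 20.9, 25.5 and 27.0 tags and a change of -1.32 (-2.09 to -0.60), with WT alone high. The region nearest CDK6, a cell cycle kinase gene, had 61, 23.7, 54.5 and 42.2 tags (-1.30, -2.02 to -0.61). The GABPB2 region, whose CTCF match is printed above, had 42, 16.4, 19.7 and 31.7 tags (-1.29, -2.17 to -0.46).

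IRF, C/EBP and AP-1 matches were more frequent in the members that rose in WT cells than in the members tested. With the window on the WT-IFN-γ summit, a choice made after seeing the data, 77 of the 375 held an IRF match (20.5%, 16.8 to 24.9), against 6.66% of the members tested. A C/EBP match was held by 83 (22.1%, 18.2 to 26.6) against 11.8%, an AP-1 match by 144 (38.4%, 33.6 to 43.4) against 29.5%, and a RUNX match by 40 (10.7%, 7.93 to 14.2) against 5.92%. CTCF was nearly absent, with 3 matches (0.800%, 0.272 to 2.33) against 10.5%. With the window on the WT summit, which chose the members, the IRF share was 13.9% against 6.06%, the C/EBP share 21.1% against 11.3% and the AP-1 share 33.9% against 28.6%. The RUNX share was then 7.73% (5.44 to 10.9) against 5.85%, an interval that holds the share of the members tested, so the RUNX difference was seen with the WT-IFN-γ summit only. Members with more IRF matches had larger median changes: 0.03 in 12088 members with none, 0.10 in 745 with 1 and 0.27 in 35 with 2 or more. Of these, 2.67%, 6.31% and 14.3% were called higher, and the last share rests on 5 members. GC content moved with the calls as well, since 137 of the 375 were in the lowest of 5 equal bins of GC content and 19 in the highest. Its part in these counts was not tested.

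In FLI1-KO cells, the same treatment moved few distal sites past 2-fold. Of 10642 members tested (10948 were under the minimum), 9 were higher in sgFLI1-IFN-γ than in sgFLI1 (0.0846%, 0.0445 to 0.161) and 7 were lower (0.0658%, 0.0319 to 0.136), against 0.0577% and 0.0308% of all regions in every list. Without centring the counts were 4 higher and 16 lower, so the direction of these few calls depends on the scaling. The spread of the members' changes was also narrower, with a standard deviation of 0.28 against 0.42 in the WT pair. The depth of the knockout libraries was lower, at 6.93 and 6.86 tags per kb of background against 8.04 in WT and 8.84 in WT-IFN-γ.

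The calls in the knockout pair were modest and their counting intervals wide. The MEIS3 region, chr19:47390995-47392180, nearest a homeobox gene, had 44, 43.7, 22.05 and 51.6 tags and changed by 1.37 (0.56 to 2.23) in sgFLI1 cells. The value in sgFLI1 was the lowest of the 4, and the treated knockout library was near the WT libraries. The DAP region, chr5:10719731-10720308, had 36, 35.5, 52.2 and 21.1 tags, a change of -1.16 (-2.04 to -0.35). The STRIT1 region was higher by 1.16, and the PXDN, LNX2 and COBL regions were lower, at -1.08, -1.05 and -1.02. A region beside the centromere of chromosome 1, chr1:125180061-125180398, was higher by 1.16 (0.50 to 1.84).

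The WT and knockout responses were little related across members. Over 9634 members with at least 60 tags in each pair, Pearson's r was 0.04 and Spearman's rank correlation 0.02, as a description across regions that share a pair of libraries on each axis. Counting error lowers such values, and its part was not tested. The 375 members that rose in WT cells had a median change of 0.16 in sgFLI1 cells (quartiles -0.07 and 0.39). Of these, 255 (68.0%) were above 0, against 47.1% of the members tested in that pair. No minimum of tags was set for the 375 in the sgFLI1 pair. There 7 were past 2-fold, but none of them was among the 9 members called higher, so each held under 60 tags in that pair. The 28 that fell had a median of -0.11 in sgFLI1 cells, with 19 (67.9%) below 0, against 52.9% of the members tested in that pair. The pairs share no library, so the same-sign shares are not fixed by construction, but most of the WT changes had no counterpart of like size in the knockout pair.

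**Figure D2:**
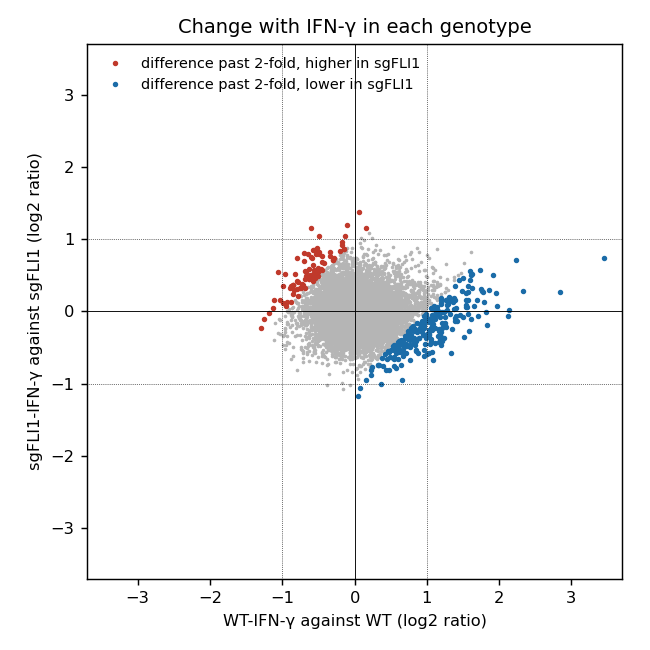
Centred log2 change with IFN-γ in WT cells (x) against that in sgFLI1 cells (y) for 9634 distal members; dotted lines mark 2-fold. Red and blue points are the 87 and 242 members whose responses differ by more than 2-fold, and the cloud is wider along the WT axis.

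The difference between the responses, taken as the change in sgFLI1 minus the change in WT, was past 2-fold in 329 of 9634 members. It was positive in 87 (0.903%, 0.733 to 1.11) and negative in 242 (2.51%, 2.22 to 2.84), and all regions in every list gave 0.585% and 1.43%. This difference combines the counting error of 4 libraries and was not tested against replicates. The lowest values were those of the RNF7 region at -2.71 and the CLEC3B region at -2.59. The PARP15 region, chr3:122609733-122610800, in an intron of PARP15, a gene of the PARP family, had 18, 74.6, 49.9 and 43.4 tags. It changed by 2.12 (1.37 to 2.95) in WT and -0.06 (-0.73 to 0.61) in sgFLI1 cells, a difference of -2.18. Its level in untreated sgFLI1 cells was already between those of WT and WT-IFN-γ. At the other end stood the centromeric region of chromosome 1 at 1.75, the TPD52 region at 1.61 and the STAC region at 1.55. The TPD52 region, chr8:80089609-80090274, had 92, 41.9, 41.8 and 55.1 tags, so that WT alone was high.

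Members with CTCF matches and members with AP-1 matches differed in opposite ways between the genotypes. With the window on the WT summit, 22 of the 87 members with a positive difference held a CTCF match (25.3%, 17.3 to 35.3) and 8 an AP-1 match (9.20%, 4.73 to 17.1). Of the 242 with a negative difference, 5 held a CTCF match (2.07%, 0.886 to 4.74) and 97 an AP-1 match (40.1%, 34.1 to 46.4). The shares over the members tested were 8.68% and 30.8%. Median changes were small. Members with a CTCF match had a median of -0.07 in the WT pair and 0.09 in the sgFLI1 pair, and members with an AP-1 match had 0.12 and -0.05. The tag extension, inferred from the shortest peak of each list, was 274 and 249 bp in the WT pair and 259 and 255 bp in the sgFLI1 pair. The part of this in the motif medians was not tested.

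Without IFN-γ, more distal sites were higher than lower in sgFLI1 cells. Of 11866 members tested (9724 were under the minimum), 533 were higher in sgFLI1 than in WT (4.49%, 4.13 to 4.88) and 269 were lower (2.27%, 2.01 to 2.55), against 2.64% and 1.47% of all regions in every list. Promoter regions gave 1.27% and 0.876%. Peak height may enter here too, since 128 of the 533 were in the lowest of 5 equal bins of mean level and 30 in the highest. Its part was not tested. In the 533 members, the level ran from 10 to 104 tags with a median of 26 in WT, and from 45.3 to 246 tags with a median of 67.3 in sgFLI1. In the 269 members, the median was 56 tags in WT and 25.5 in sgFLI1.

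With IFN-γ more members were lower than higher in sgFLI1 cells. Of 11892 members tested (9698 were under the minimum), 309 were higher in sgFLI1-IFN-γ than in WT-IFN-γ (2.60%, 2.33 to 2.90) and 487 were lower (4.10%, 3.75 to 4.47), against 1.61% and 2.45% of all regions in every list. The 487 members had medians of 44 and 61.9 tags in the WT pair and 29.0 and 24.6 in the sgFLI1 pair. Since these members were chosen for a high WT-IFN-γ and a low sgFLI1-IFN-γ value, those medians would be expected to stand highest and lowest. In the libraries outside the choice, the median was lower in sgFLI1 (29.0 tags) than in WT (44 tags). The 309 members had medians of 30, 23.7, 67.3 and 62.1 tags in the same order.

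The genotype differences seen without IFN-γ were found again with it. Over 10709 members with enough tags in each pair, Pearson's r was 0.61 and Spearman's rank correlation 0.51, as a description across regions. The 2 comparisons share no library, although the libraries of each genotype share their cells. Of the 533 members higher without IFN-γ, 493 (92.5%) were above 0 with it and 204 (38.3%) past 2-fold, with a median of 0.85. Over all members tested with IFN-γ, 47.7% were above 0 and 2.60% were called higher. Of the 269 lower members, 252 (93.7%) were below 0 and 123 (45.7%) past 2-fold, with a median of -0.88, against 52.3% and 4.10% of all members tested. These counts set no minimum of tags in the pair with IFN-γ. With at least 60 tags in each pair, 160 members were past 2-fold higher and 116 past 2-fold lower in both. With each chromosome centred on its own median the r was 0.59.

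**Figure D3:**
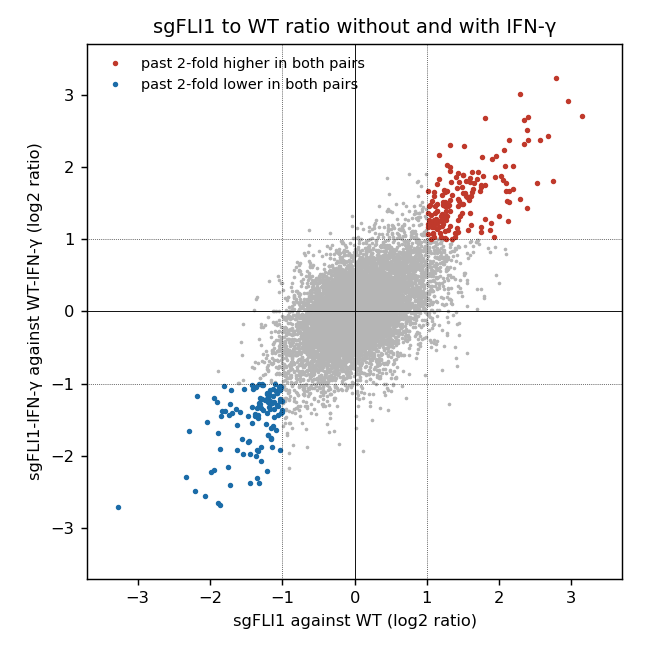
Centred log2 ratio of sgFLI1 to WT without IFN-γ (x) and with IFN-γ (y) for 10709 distal members; dotted lines mark 2-fold. The points lie along a diagonal, with 160 members past 2-fold higher in each pair (red) and 116 past 2-fold lower in each pair (blue).

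The members with the largest genotype differences were low in one genotype and high in the other. The LPCAT1 region, chr5:1554864-1556201, 31.7 kb upstream of a lysophospholipid acyltransferase gene, had 18 and 20.9 tags in untreated and treated WT cells and 165 and 134 in sgFLI1 cells. Its sgFLI1 to WT ratio was 3.14 (2.43 to 3.94) without and 2.70 (2.04 to 3.41) with IFN-γ. The region was named for both ratios, so the gap in each pair was fixed by the choice. The SAXO1 region, chr9:18976206-18977436, had 11, 10.9, 88.2 and 80.9 tags, with ratios of 2.95 (2.03 to 4.01) and 2.91 (2.02 to 3.93). The ARHGAP31 region, chr3:119309780-119311946, in an intron of this gene, had 14, 10.9, 99.8 and 101 tags, with ratios of 2.78 and 3.23. The CHCHD6 and DCANP1 regions followed, with 14, 21.8, 97.5 and 75.04 tags in the first and 17, 8.19, 85.9 and 64.5 tags in the second.

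The largest falls were of like size. The GPC5 region, chr13:90838768-90840106, 559 kb from the nearest protein-coding start, had 108 and 78.3 tags in WT cells and 11.6 and 11.7 in sgFLI1 cells, with ratios of -3.27 (-4.37 to -2.33) and -2.71 (-3.82 to -1.77). The TNFSF8 region, chr9:114980699-114981835, had 62, 58.2, 12.8 and 11.7 tags. The SLC25A21 region had 56, 45.5, 11.6 and 10.6 tags, and the MANEA region 77, 67.3, 16.2 and 21.1 tags. These regions were named for their low ratio without IFN-γ, so the gap between WT and sgFLI1 was fixed by the choice. With IFN-γ, a pair outside that choice except for the GPC5 region, the knockout library was also the lower one in each. None of these regions changed past 2-fold with IFN-γ in WT cells. In sgFLI1 cells each held under 60 tags in the pair, so no call was possible. The intervals there reached past 2-fold, as from -1.26 to 1.58 in the GPC5 region. With IFN-γ, the lowest ratios included the TLR5 region, chr1:223031622-223032355, with 30, 84.6, 12.8 and 12.9 tags and a ratio of -2.69 (-3.74 to -1.78). It rose with IFN-γ in WT cells by 1.57 (0.96 to 2.21). Both knockout libraries were low, and their pair held under 60 tags, so no call was possible there. The interval of the knockout change overlapped that of the WT rise, so a lost response cannot be read from these values. The TLR5 region was named for its low ratio with IFN-γ, so the gap between WT-IFN-γ and sgFLI1-IFN-γ was fixed by the choice. The TLE4 and GRIK2 regions had ratios of -2.67 and -2.65.

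**Figure D4:**
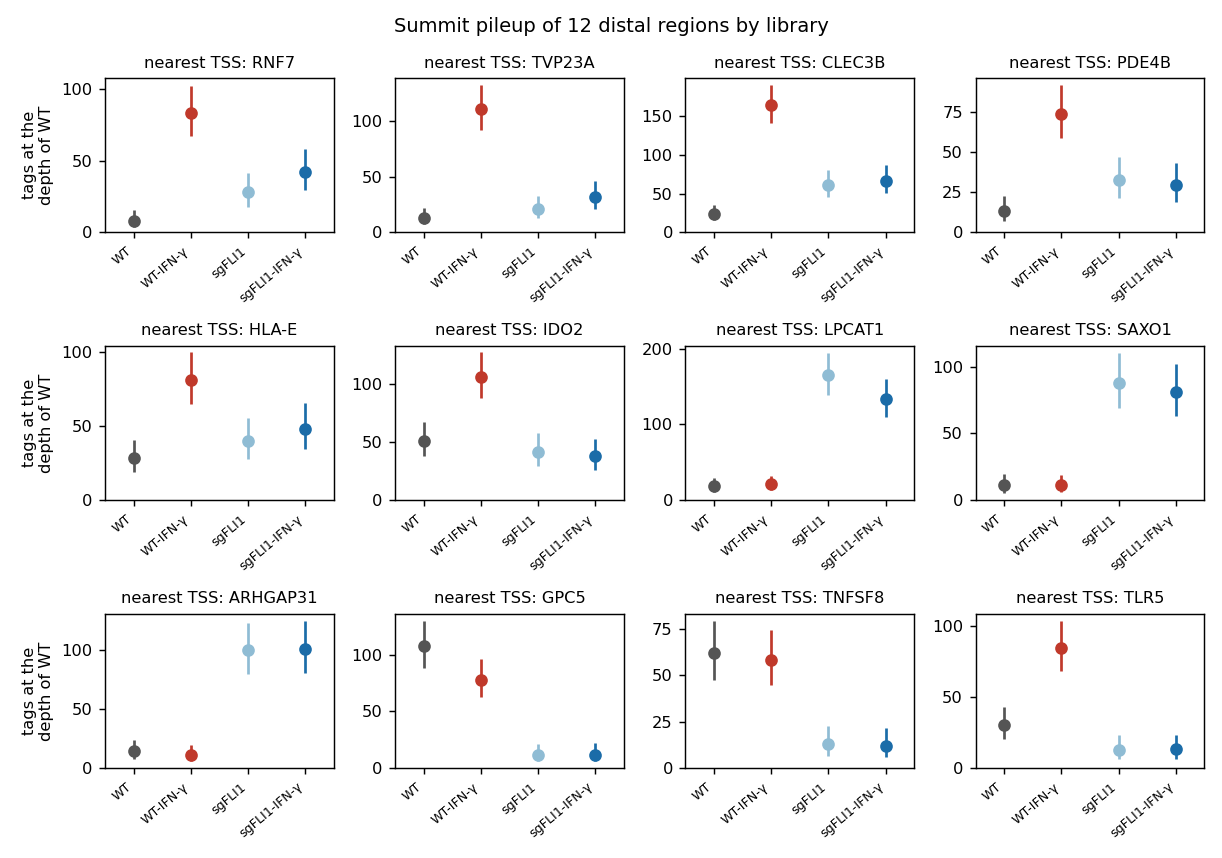
Summit pileup in tags at the depth of WT (y) in each library (x) for 12 named distal members; points are values and bars exact 95% Poisson intervals for counting error. The first 6 are highest in WT-IFN-γ, the LPCAT1, SAXO1 and ARHGAP31 regions are high in the knockout libraries, the GPC5 and TNFSF8 regions are high in the WT libraries, and the TLR5 region is highest in WT-IFN-γ.

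RUNX and AP-1 matches were frequent in the members higher in untreated sgFLI1 cells. With the window on the sgFLI1 summit, 80 of the 533 held a RUNX match (15.0%, 12.2 to 18.3) against 6.71% of the members tested, 227 an AP-1 match (42.6%, 38.5 to 46.8) against 31.3%, and 3 a CTCF match (0.563%) against 9.50%. With IFN-γ the RUNX share was again above that of the members tested, with 43 of 309 (13.9%, 10.5 to 18.2) against 6.48%, while AP-1 was not (28.5%, 23.7 to 33.8, against 30.5%). In the members lower in the knockout, C/EBP was more frequent, with 40 of 269 (14.9%, 11.1 to 19.6) against 10.6% without IFN-γ and 93 of 487 (19.1%, 15.9 to 22.8) against 11.96% with it. The IRF share of the 487 was 10.5% (8.06 to 13.5) against 6.76% on the WT-IFN-γ summit, and 7.39% (5.39 to 10.1) against 6.04% on the WT summit, where the interval holds the share of the members tested. ETS matches were too few to compare: on the WT summit none of the 269 lower members held one, which allows a share of up to 1.41% by the Wilson interval.

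**Figure D5:**
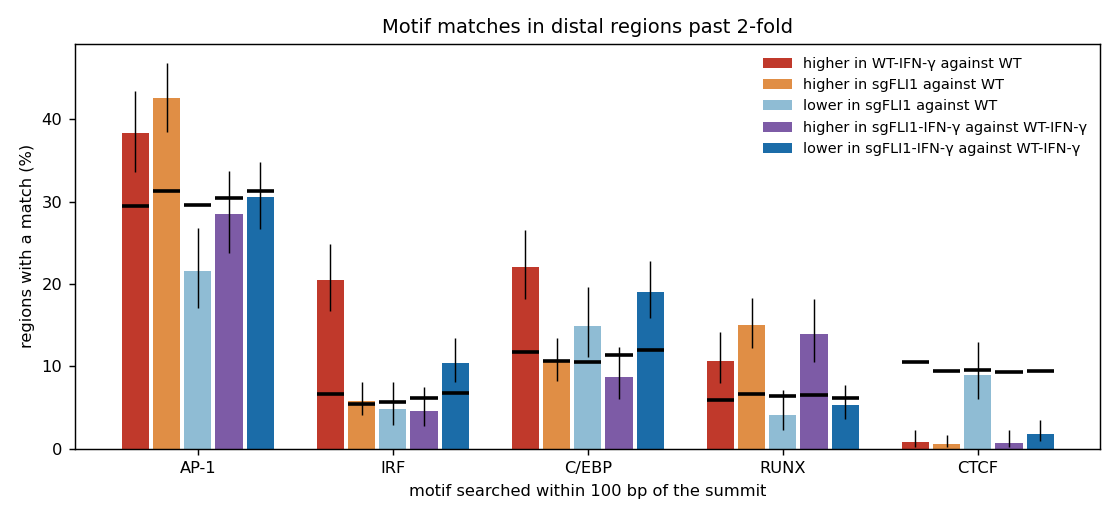
Share of called distal members with a match (bars, %) for 5 motifs within 100 bp of the summit of the library with the higher level; thin lines are 95% Wilson intervals and thick marks the share over all members tested in that comparison. IRF stands out in members higher in WT-IFN-γ (20.5%), RUNX in members higher in either knockout comparison, and CTCF lies far below its marks in all sets but the members lower in sgFLI1, where 8.92% stands beside 9.55%.

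Members near IFN-γ-inducible genes were few, and a small number of them were called in WT cells or between genotypes. Of 84 genes on that list, 31 were the nearest protein-coding start within 100 kb of 52 members. Of 32 with enough tags, 4 were higher in WT-IFN-γ, or 12.5% (the share was 2.75% over all members with a protein-coding start within 100 kb) and none was lower, with a median change of 0.28 against 0.03. The share of the list rests on these 4 members. In sgFLI1 cells none of 22 was called, where 0.0769% of all such members were higher and 0.0659% lower, and the median was 0.01. Between genotypes 3 of 23 were higher and 2 lower in sgFLI1 than in WT, against 4.24% and 2.13% of all such members, and 1 of 28 was higher and 3 lower with IFN-γ, against 2.54% and 3.71%. The same shares of all members with a protein-coding start within 100 kb stand as the background of the gene lists below. The HLA-E region, chr6:30496069-30497142, near the gene of a non-classical MHC class I molecule, had 28, 81.0, 39.5 and 48.1 tags and changed by 1.60 (0.97 to 2.27) in WT cells. The PARP14 region, chr3:122668718-122669742, had 17, 44.6, 11.6 and 21.1 tags, with 1.46 (0.64 to 2.35) in WT and 1.01 (-0.19 to 2.28) in sgFLI1 cells on few tags. A region 3.66 kb upstream of NLRC5, the activator of MHC class I genes, had 37, 74.6, 45.3 and 25.8 tags, with 1.08 (0.50 to 1.68) in WT and -0.67 (-1.49 to 0.12) in sgFLI1 cells.

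The others on this list were smaller. The TNFSF10 region, near the gene of the death ligand TRAIL, had 22, 43.7, 55.7 and 38.7 tags, a change of 1.06 (0.30 to 1.86) in WT cells. The EPSTI1, IFI44 and FAS regions had changes of 0.85, 0.83 and 0.73 in WT cells, and a second NLRC5 region, chr16:57083743-57085017, had 0.70. When any list gene with a start within 100 kb was counted, nearest or not (also chosen after seeing the data), 10 of 112 members were higher (8.93%) in WT-IFN-γ, including the TVP23A region through CIITA and the PARP15 region through PARP9.

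Among the kynurenine pathway genes, 2 of 12 tested members were higher with IFN-γ in WT cells, against 2.75% of all such members. None of 10 was called in sgFLI1 cells, where the background of 0.0769% gives close to none. No member had IDO1, the enzyme that starts kynurenine synthesis, as its nearest start. A member in an intron of the neighbouring IDO2, chr8:39942410-39943483, 18.1 kb from the start of IDO1, had 51, 106, 41.8 and 37.5 tags. It rose by 1.13 (0.65 to 1.64) in WT cells, gave -0.01 (-0.75 to 0.72) in sgFLI1 cells and was lower in sgFLI1-IFN-γ than in WT-IFN-γ (-1.48, -2.09 to -0.90). A member upstream of KYNU, kynureninase, had 51, 50.1, 25.5 and 27.0 tags, with a sgFLI1 to WT ratio of -1.05 (-1.84 to -0.30). The knockout libraries were lower there in each treatment.

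The 2 members in introns of FLI1 itself had low levels and wide intervals. The first, chr11:128709282-128710229, had 20, 30.0, 24.4 and 21.1 tags, and the second, chr11:128714839-128716755, had 21, 14.6, 36.0 and 29.3 tags. Neither is a check of the knockout. The member in an intron of CREBBP, the gene of the acetyltransferase CBP, had 26, 10.0, 26.7 and 27.0 tags, with WT-IFN-γ alone low. The pair of WT libraries held under 60 tags there, so no call was made. The member near KAT5, another acetyltransferase gene, had 48, 41.0, 47.6 and 44.6 tags, and each of its intervals held 0. Among the lysine acetyltransferase genes no member was called in any of the 4 comparisons, with 7 or fewer tested in each, and a background of at most 4.24% in either direction also gives close to none.

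Members near squamous epithelial genes were plentiful and mostly level. Of 12 marker genes of squamous epithelium, 11 were nearest to a member, with 37 members in all and 1908 tags summed in WT, and DSG3 was nearest to none. Of 12 lymphocyte and myeloid markers, 8 were nearest to 15 members with 580 tags, and MS4A1, CD14 and CSF1R were among those nearest to none. Among the members of the longer squamous list, 2 of 80 were higher with IFN-γ in WT cells (2.75% of all such members). In sgFLI1 against WT 3 of 78 were lower and none higher, against 2.13% and 4.24%, and with IFN-γ 4 of 78 were lower and 2 higher, against 3.71% and 2.54%. These counts are near the background. The largest of these genotype differences was 24.2 kb from the nearest GRHL2 start, a gene of an epithelial transcription factor, at chr8:101607264-101608689, with 66, 93.7, 25.5 and 31.7 tags and a ratio of -1.42 (-2.19 to -0.71). A second GRHL2 member, chr8:101642092-101642952, had 27, 53.7, 29.0 and 29.3 tags and was high in WT-IFN-γ alone.

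Members near AP-1 genes were higher in sgFLI1 than in WT in 3 of 14 cases and lower in none, against 4.24% and 2.13% of all such members, and 1 of 13 was higher with IFN-γ, against 2.54%. The BATF3 region, chr1:212655723-212656950, whose AP-1 match is printed above, had 30, 25.5, 91.7 and 75.04 tags, with sgFLI1 to WT ratios of 1.56 (0.94 to 2.22) and 1.58 (0.92 to 2.28). BATF3 encodes a partner of JUN. The ATF3 region had 128, 72.8, 158 and 131 tags and was lowest in WT-IFN-γ. Near ETS genes, 1 of 24 members was higher in sgFLI1 (4.24% of all such members), the SPDEF region with 27, 34.6, 67.3 and 58.6 tags, and the ETS1 region had 23, 42.8, 32.5 and 24.6 tags. Near NF-κB genes, 1 of 14 members was called, higher in sgFLI1-IFN-γ than in WT-IFN-γ (2.54% of all such members). Near mesenchymal genes 1 of 35 was higher and 1 lower with IFN-γ in WT cells (2.75% and 0.200%). Single calls among so few members cannot be set apart from the background. The levels were, for the TNFAIP2 region, 65, 48.2, 128 and 99.7 tags, for the TGFB2 region 50, 21.8, 45.3 and 42.2 tags and for the COL5A1 region 106, 78.3, 56.9 and 55.1 tags. The TNFAIP3 region had a change of 0.68 (-0.07 to 1.46) with IFN-γ in WT cells, and the KAT2B region a sgFLI1 to WT ratio of 0.50 (0.09 to 0.90). A pair of members near RUNX3, on the lymphocyte and myeloid list, differed in their levels, and on that list 1 of 9 members tested was called in each genotype comparison, higher without IFN-γ (4.24% of all such members) and lower with it (3.71%). RUNX3 encodes a factor that binds the RUNX motif. The first, chr1:24949121-24949860, had 23, 31.9, 55.7 and 49.2 tags and was called higher in sgFLI1 (1.23, 0.48 to 2.01). The second, chr1:24866411-24867633, had 43, 61.9, 33.6 and 24.6 tags and was called lower in sgFLI1-IFN-γ than in WT-IFN-γ (-1.30, -2.08 to -0.58).

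Genotype ratios also moved by chromosome. The median sgFLI1 to WT ratio of members was -0.36 on chromosome 18 (138 members), -0.27 on chromosome 19, -0.26 on chromosome 16, -0.17 on chromosome 9, 0.22 on chromosome 5 and 0.24 on chromosome 13. With IFN-γ the same chromosomes gave -0.52, -0.18, -0.26, -0.25, 0.12 and 0.13. The changes with IFN-γ spread less, from -0.04 to 0.15 over 23 chromosomes in WT cells and from -0.06 to 0.05 in sgFLI1 cells. On chromosome 18, 14 of 138 members tested were lower and none was higher in sgFLI1, and on chromosome 5, 62 of 724 were higher and 6 lower. On chromosome X, 22 of 207 were lower and 6 higher. Over all members tested, 4.49% were higher and 2.27% lower. With IFN-γ chromosome X had 34 of 212 lower and 2 higher, against 4.10% and 2.60% of all members tested. After centring each chromosome on its own median, 509 members were higher and 245 lower without IFN-γ, and 309 and 463 with it. Copy number was not measured, and its part in these medians was not tested.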

How the data were processed

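ATAC-seq of HK1 cells was analysed from 4 deposited peak lists, 1 for each group. Per the labels and methods, the authors trimmed reads (Trimmomatic 0.3), aligned them to GRCh38 (Bowtie2 2.3.4.1), dropped duplicates and poorly mapped alignments, called peaks (MACS2 2.1.2) and kept those that were reproducible by irreproducible discovery rate, which compares replicates. Whether the deposited lists are from before or after that step, whether a list holds 1 replicate or pooled ones, and whether tags were shifted for the transposase are not given in the sources used here. The deposited columns hold a score, a fold enrichment (ratio) over background, −log10 p-value and −log10 q-value, and a summit offset.

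A whole-number pileup and background that satisfy the deposited fold and −log10 p were found for 100% of peaks. The WT lists held 59629 peaks untreated and 67470 with IFN-γ, and the sgFLI1 lists 63203 and 59923. Tag density was the lowest background divided by the extension length, 8.04, 8.84, 6.93 and 6.86 tags per kb in that order. The extension length was inferred as the width of the shortest peak in each list. Read totals stay unknown, because this density rests on the caller's genome size setting. Where a region held several peaks of a list, the peak of highest −log10 q was used. Each library was read at its own summit, and 78.7% of members had summits within 100 bp in WT and WT-IFN-γ. Ratios have exact conditional binomial intervals, levels exact Poisson intervals and shares Wilson intervals (95%). Since duplicates were removed and reads carried no stated molecular barcode, the intervals reflect counting error alone. There is no test between groups with 1 library each, and no p-value is given.

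TSSs and genes came from GENCODE 44, and 14 motifs were searched with Python 3.11.15 (pysam 0.24.0, scipy 1.17.1). Named regions are the 4 largest changes each way in each comparison, the 3 largest differences of response each way, the 5 highest WT levels, the largest changes near each of 9 gene lists, the 8 highest changes near IFN-γ-inducible genes, and members nearest IDO1, FLI1, CREBBP and KAT5. One region this rule names and 1 marker gene are not reported here. The members and lists were chosen with earlier results of these data known. Calls were checked on simulated data. Alternatives were a stricter q, a stricter overlap, a longer TSS distance, other centring, more tags and nearer summits, and 2 were added after seeing the data.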

Additional observations from a re-analysis of the deposited data

Results flagged for a closer look

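Of the members named here with at least 60 tags in each pair, 10 changed in opposite directions with IFN-γ in WT and in sgFLI1 cells by more than 2-fold between them. With 1 library in each group, the difference was not tested. As sgFLI1 response minus WT response, it was 1.75 in the region nearest SRGAP2C beside the centromere of chromosome 1, 1.61 in the TPD52 region, 1.55 in the STAC region and 1.17 in the TGFB2 region. It was -1.21 in the DAP region, -1.14 in the LNX2 region, -2.18 in the PARP15 region, -1.44 in the TNFSF10 region, -1.14 in the IDO2 region and -1.75 in the NLRC5 region at chr16:56985504-56986218. In the PARP15, IDO2 and TGFB2 regions the sgFLI1 response lay near 0, at -0.06, -0.01 and 0.04. The WT response lay near 0 in the DAP and LNX2 regions, at 0.05 and 0.08.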

How the results depend on the processing

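Over the alternatives 63 values moved little and 49 moved more, and without centring the balance of calls in sgFLI1-IFN-γ against sgFLI1 turned from 9 higher and 7 lower to 4 and 16. With −log10 q of at least 10 in every list the members were 11672, with a TSS distance over 10 kb 12851. Counts higher and lower were, for WT-IFN-γ against WT, 161 and 9 at the stricter q, 239 and 18 over 10 kb, 132 and 3 with at least 100 tags, and 244 and 18 with summits within 100 bp, and 56 were lower without centring. For sgFLI1-IFN-γ against sgFLI1 they were 5 and 2 at the stricter q and 1 and 0 with at least 100 tags. For sgFLI1 against WT they were 278 and 105, 333 and 167 over 10 kb, and 154 and 77 with at least 100 tags. For sgFLI1-IFN-γ against WT-IFN-γ they were 155 and 190, 184 and 324 over 10 kb, 70 and 183 with at least 100 tags, and 203 and 312 with summits within 100 bp. The response differed by more than 2-fold in 219, 187, 56 and 211 members under these settings in turn. All but the centring settings test fewer regions.

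Motif shares of members within 50 bp of the summit were 17.3% for AP-1, 9.34% for CTCF, 2.87% for IRF, 5.90% for C/EBP and 3.37% for RUNX, in a shorter window. AP-1 was 29.6% at the stricter q and 28.1% over 10 kb, where CTCF was 10.7% and C/EBP 12.1%. On the summit of the higher library, in place of the WT summit, the share was 20.5% in place of 13.9% for IRF in members higher in WT-IFN-γ, and 42.6% in place of 38.1% for AP-1 in members higher in sgFLI1. In sgFLI1-IFN-γ against WT-IFN-γ it was 0.647% in place of 1.62% for CTCF in higher members and 10.5% in place of 7.39% for IRF in lower members, whose excess over the members tested was not seen on the WT summit. With any IFN-γ-inducible gene within 100 kb, 10 members were higher in place of 4. No paired analysis was possible because each group has 1 library and the labels give no shared replicate numbers. Regions under 60 tags were not called, and with 1 library a group the spread between cultures is unknown.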
